A study of Mus musculus with 17 samples.

Results

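The genes described here are the protein-coding mouse genes named Zfp, for zinc finger protein, in bone marrow-derived macrophages, which are grown in culture from marrow precursors. They were chosen as symbols that start with Zfp and a number, without Zfp36, Zfp36l1 and Zfp36l2, which encode RNA-binding proteins of another kind, and with a mean of at least 100 counts over the libraries. Of 391 protein-coding Zfp genes, 170 met this rule, in a table of 55401 gene identifiers. Just inside the limit were Zfp949 with a mean of 103 counts and Zfp933 with 104, and just outside were Zfp623 with 96.9 and Zfp455 with 98.1. All 170 passed the low-count filter of both fits.

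RNA was sequenced in 17 libraries in 6 groups. C57BL/6J cells formed a control group (3 libraries), a group in medium conditioned by B16F10, a mouse melanoma cell line (3 libraries), and groups in that medium with KCl (3 libraries) or NaCl (2 libraries) at a final concentration that the labels give as 40 mM. The other 6 libraries were from cells in conditioned medium with isotonic KCl, 3 from Kcnj2f/f cells, with a floxed but active gene of the potassium channel Kir2.1, and 3 from Lyz2-Cre-Kcnj2f/f cells, in which the Lyz2 promoter drives Cre recombinase in myeloid cells. Treatment lasted 6 hours in the 5 groups given conditioned medium. What control cells received and the isotonic KCl concentration are not given in the labels. Floxed and knockout cells thus share the conditioned medium, the isotonic KCl and the floxed allele, and differ in the Cre allele and the loss of Kcnj2.

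Most Zfp proteins bind DNA through arrays of C2H2 fingers, short folds held by a zinc ion, and the order of fingers sets the sequence that is read. Many also carry a KRAB box, which recruits the corepressor TRIM28 (KAP1) and, through it, the histone methyltransferase SETDB1 and heterochromatin proteins. KRAB zinc finger proteins are known above all for the silencing of retroelements and imprinted loci. Others without the box activate promoters, bind RNA, or act in splicing, ubiquitin transfer and mitosis.

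Promoters were matched by symbol for 141 of the 170 genes (RefSeq, GRCm38.p6, 250 bases before to 50 bases after the gene start), against 32851 promoters in all. The motif bound by ZNF143, the human counterpart of Zfp143, was searched on both strands as ACTACA, any 2 bases and TCC. It was in 21 of the 141 (14.9%) and in 649 of all promoters (1.98%). Promoters with the motif are shown because this share was higher in Zfp genes, with no test made of it, and Zfp811, which has no such match, because it had the largest change. Capitals mark the motif, which appears as written or, on the other strand, ending in TGTAGT. All 5 genes lie on the minus strand, and each sequence is printed in the direction of its gene.
Zfp874a: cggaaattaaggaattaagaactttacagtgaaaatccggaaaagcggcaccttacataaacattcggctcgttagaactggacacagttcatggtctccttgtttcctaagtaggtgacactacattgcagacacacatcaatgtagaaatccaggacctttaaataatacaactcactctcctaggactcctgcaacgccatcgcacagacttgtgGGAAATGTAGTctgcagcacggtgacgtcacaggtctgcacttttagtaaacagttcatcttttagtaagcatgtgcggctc
Zfp874b: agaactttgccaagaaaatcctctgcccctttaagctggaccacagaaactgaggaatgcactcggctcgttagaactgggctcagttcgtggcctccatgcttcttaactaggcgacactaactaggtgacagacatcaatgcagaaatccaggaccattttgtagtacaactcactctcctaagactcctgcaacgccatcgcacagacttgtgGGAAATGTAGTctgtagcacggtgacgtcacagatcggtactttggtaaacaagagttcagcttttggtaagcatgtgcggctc
Zfp780b: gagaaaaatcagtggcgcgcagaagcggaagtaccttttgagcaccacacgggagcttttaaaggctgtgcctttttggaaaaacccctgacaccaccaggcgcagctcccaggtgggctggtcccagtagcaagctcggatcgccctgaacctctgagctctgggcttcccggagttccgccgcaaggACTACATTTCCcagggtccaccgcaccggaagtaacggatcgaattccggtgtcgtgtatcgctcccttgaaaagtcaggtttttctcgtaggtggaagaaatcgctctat
Zfp111: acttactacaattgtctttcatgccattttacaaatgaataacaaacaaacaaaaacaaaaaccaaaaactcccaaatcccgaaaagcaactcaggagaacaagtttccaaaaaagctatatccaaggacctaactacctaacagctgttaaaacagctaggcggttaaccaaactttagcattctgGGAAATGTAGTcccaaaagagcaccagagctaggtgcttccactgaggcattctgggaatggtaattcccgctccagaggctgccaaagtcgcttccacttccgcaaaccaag
Zfp811: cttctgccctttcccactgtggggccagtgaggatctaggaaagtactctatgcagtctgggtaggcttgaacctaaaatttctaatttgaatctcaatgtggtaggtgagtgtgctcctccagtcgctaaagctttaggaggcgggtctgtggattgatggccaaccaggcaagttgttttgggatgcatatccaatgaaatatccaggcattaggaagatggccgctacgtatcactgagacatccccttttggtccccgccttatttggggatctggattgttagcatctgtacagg
The windows are chr13:67451575-67451874, chr13:67484204-67484503, chr7:27979108-27979407, chr7:24208100-24208399 and chr17:32809882-32810181, all on the minus strand. The match begins 32 bases before the start of Zfp874a, 34 before that of Zfp874b, 61 before that of Zfp780b and 63 before that of Zfp111.

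Of the 21 genes with the motif, 15 had a KRAB box, 9 lay on chromosome 7 and 8 on chromosome 13. By box, the motif was in 23.4% of 64 promoters of KRAB genes and 7.79% of 77 promoters of the others. The ETS motif CCGGAAG was in 21.3% of Zfp promoters and 8.86% of all, and the NRF1 motif (GCGCA, any base and GCGC) in 9.22% and 4.6%. TATAAA was in 5.67% of Zfp promoters and 13.6% of all, the CRE TGACGTCA in 4.96% and 1.79%, and the NF-kB motif (GGGA, any base and TTTCC) in 1.42% and 0.411%. The motif of NFAT5, the factor of the response to hypertonic stress, was searched as TGGAAA, any 2 bases, T, any base and C, and was in 0 of the 141 and 1.28% of all. These matches only describe letters in a window and show no binding. Zfp promoters had a median GC content of 57% and a CpG observed over expected ratio of 0.718, against 52.7% and 0.384 over all promoters, a set not limited to expressed genes.

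**Figure D1:**
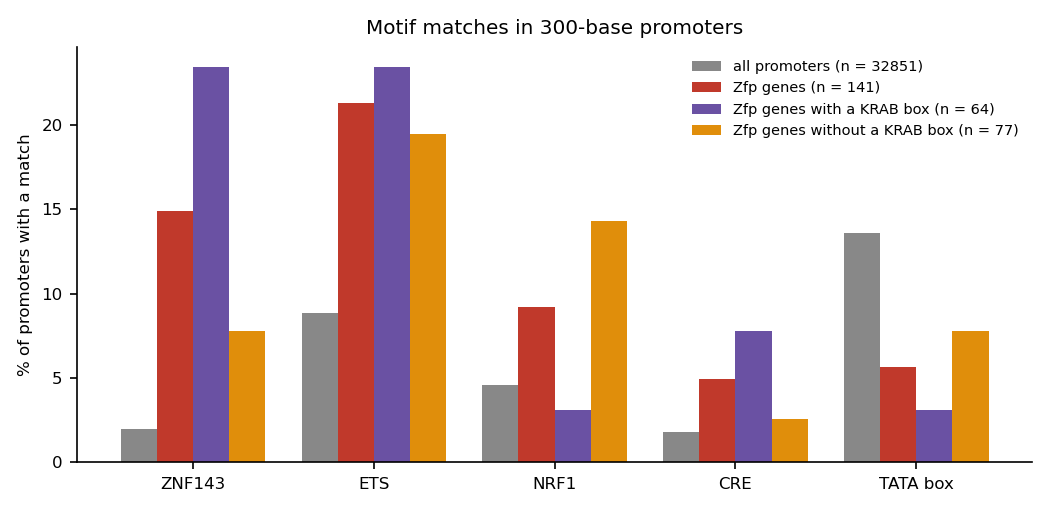
Share of promoters with a match (percent, y axis) for 5 of the searched motifs (x axis), with bars for all 32851 RefSeq promoters, all 141 matched Zfp promoters, and those with (64) and without (77) a KRAB box. The ZNF143 motif was in 23.4% of KRAB gene promoters and 1.98% of all, a set not limited to expressed genes.

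By the translated coding sequences, 73 of the 170 genes encode a KRAB A box and 97 do not. The median number of C2H2 fingers was 12 with the box and 7 without it, and 85 genes had at least 10. By chromosome, 34 were on chromosome 7, 23 on chromosome 17, 15 on chromosome 13 and 13 on chromosome 8. Their transcripts were long and had few exons: the median length was 3997 bases, against 3115.5 for the 12392 protein-coding genes tested, and the median number of exons 5 against 9. Median GC content of the transcript was 40.4% with the box and 51.2% without it. The longest transcripts were those of Zfp704 (13834 bases), Zfp738 (13215) and Zfp318 (13060), and the shortest those of Zfp688 (1015), Zfp414 (1211) and Zfp637 (1231).

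Levels were low. The median level was 3.75 CPM per kilobase of transcript (CPM, counts scaled to library size with TMM factors), against 6.04 for protein-coding genes tested, and KRAB genes had 3.12 and the others 4.35. The highest was Zfp207 at 65.4 CPM per kilobase, whose protein (BuGZ) binds Bub3 at spindles and kinetochores. Next came Zfp263 with 40.1, Zfp330 with 27.7, Zfp91 with 27.4, Zfp710 with 22.6 and Zfp706 with 19.5. The lowest were Zfp81 at 0.934, Zfp111 at 0.992 and Zfp738 at 1.03. Most genes moved little over the 6 groups: the highest group mean exceeded the lowest by less than 2-fold for 124 of 170, with a median ratio of 1.66, but the ratio was 16.7 for Zfp395 and 202 for Zfp811. Control was the highest group for 59 genes and NaCl for 43, while KCl was the lowest for 52.

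**Figure D2:**
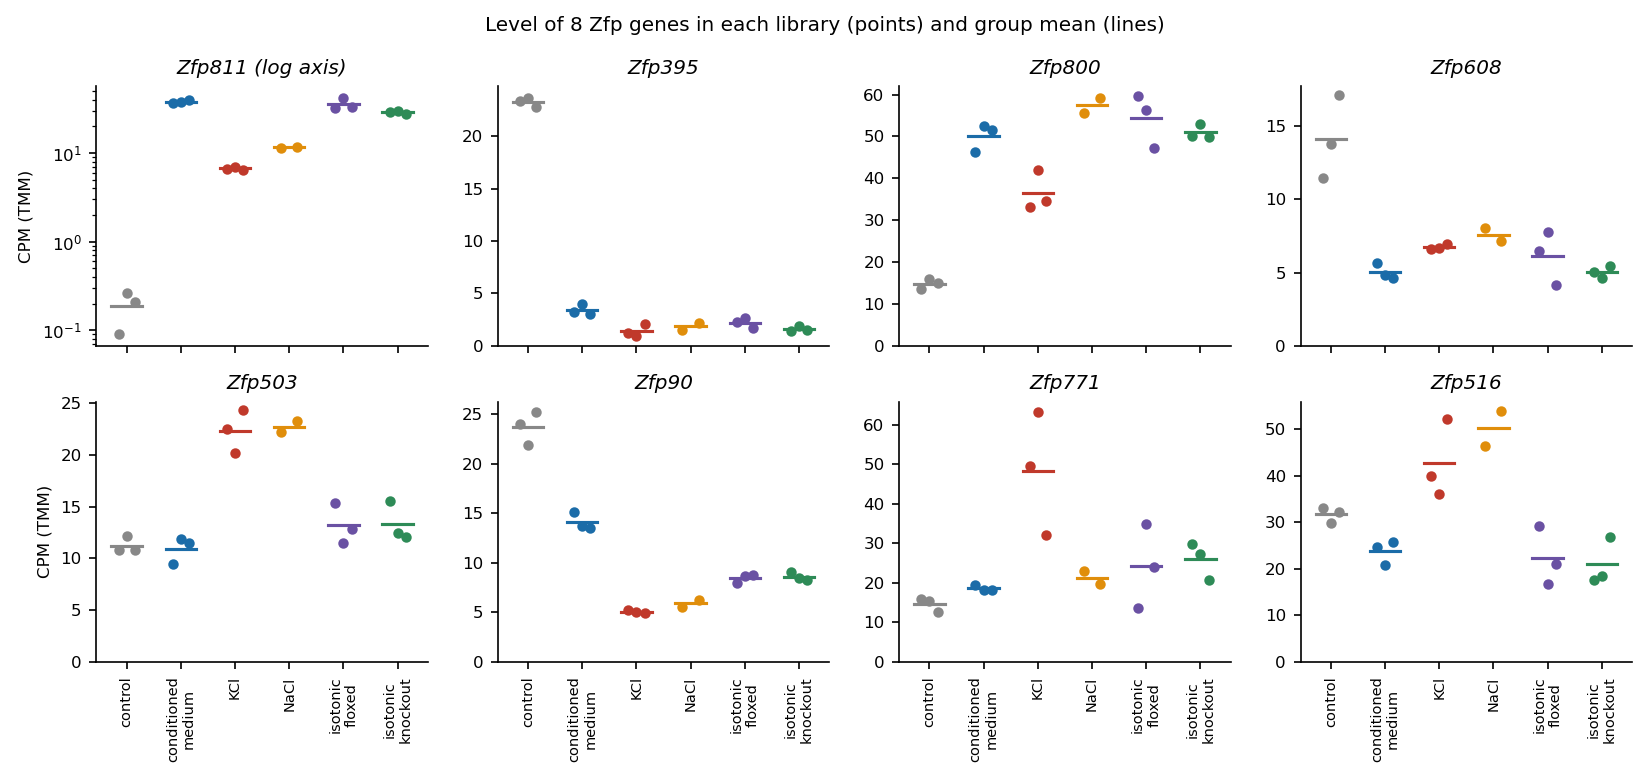
Level (CPM, y axis, on a log axis for Zfp811) of 8 Zfp genes in the 6 groups (x axis), with 1 point per library and a line at each group mean. Zfp811 lies at 0.0906 to 0.261 CPM in control and at 27.7 to 41.8 CPM in conditioned medium alone and in both isotonic groups, and Zfp395 falls from 22.8 to 23.6 CPM in control to 3.05 to 4.02 CPM in conditioned medium.

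Libraries held 13503869 to 19391623 counts. The 170 genes took between 0.469 and 0.484% of them in the control libraries, between 0.375 and 0.406% in those of conditioned medium, between 0.338 and 0.374% in the KCl libraries and between 0.403 and 0.419% in the NaCl libraries. Libraries differed in how counts went along with transcript length, and whether this lay in counting or in expression was not tested. The slope of log2 CPM on log2 length, over other genes, lay between 0.07 and 0.13 for control, 0.04 and 0.11 for conditioned medium, −0.11 and 0.01 for KCl, 0.08 and 0.14 for NaCl, −0.19 and 0.13 for floxed cells, and −0.18 and −0.03 for knockout cells. All 8 macrophage markers were detected in each group, Tyr, Dct and Retnlg had 0 counts in every library, and Elane had 0 in 15 of 17. Of the other melanoma markers Pmel was above 0 in all 17 libraries, Mlana was at 0 in 1, and Mitf, which macrophages also express, lay between 67.9 and 236 CPM. The summed melanoma markers, mostly Mitf, lay between 69.1 and 73.7 CPM in control, 178 and 183 in conditioned medium, 159 and 213 for KCl, and 223 and 237 for NaCl. All 5 fibroblast markers were detected in each group, with sums between 552 and 699 CPM in control, 476 and 522 in conditioned medium, 268 and 448 for KCl, 458 and 516 for NaCl, 235 and 475 for floxed cells, and 168 and 233 for knockout cells. The summed dendritic cell markers lay at most at 1.73 CPM in control and 4.2 in conditioned medium, and between 15.4 and 21.2 for KCl and 6.16 and 7.16 for NaCl. The highest value in any library was 19.9 CPM for Xcr1, 2.44 for Zbtb46 and 0.228 for Flt3, and Siglech was at 0 in 16 of 17. Of the 2 dendritic markers tested with KCl, 1 rose by 3.61 and the other had −0.43, not called. The summed neutrophil markers, mostly Csf3r, lay between 53.2 and 57.3 CPM in control, 157 and 171 in conditioned medium, 37.5 and 42.2 for KCl, and 57.2 and 57.8 for NaCl. The part of these markers, and that of transcript length, in the results was not tested, except where a fit with length is given. In bulk RNA, fewer cells of a type and less RNA per cell cannot be told apart.

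**Figure D3:**
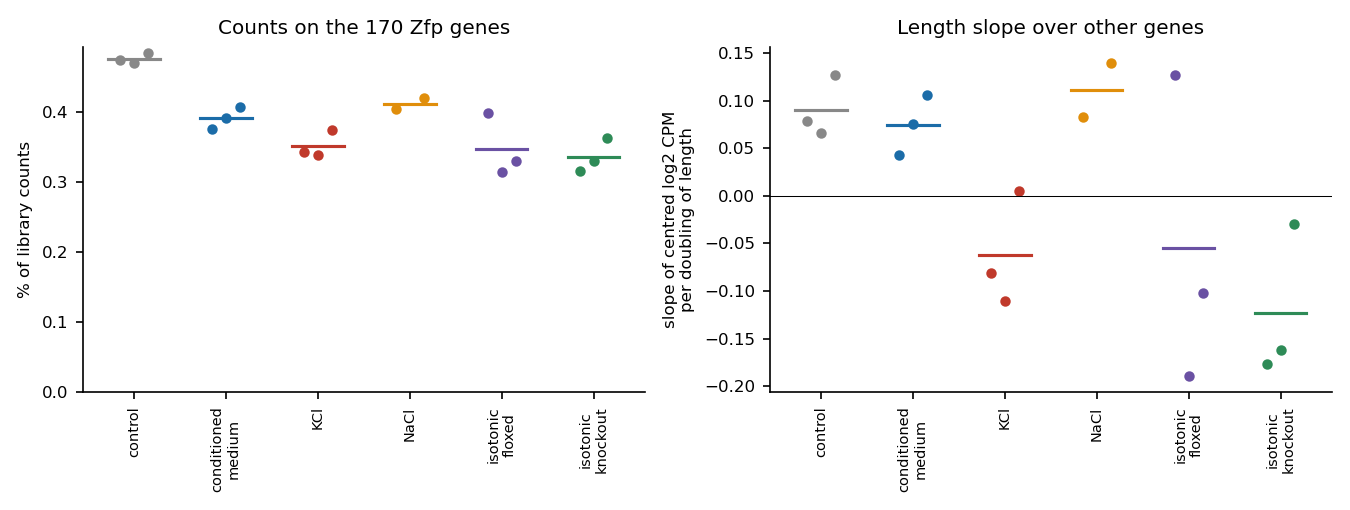
Left, percent of each library's counts on the 170 Zfp genes, and right, the library's slope of log2 CPM on log2 transcript length over other genes, both by group (x axis) with 1 point per library and a line at the group mean. The control libraries have the highest shares, at 0.469 to 0.484%, and the first floxed library, at a slope of 0.13, stands apart from the other floxed libraries.

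The comparison of conditioned medium with control asked what melanoma-conditioned medium does to macrophage RNA. Of the 170 Zfp genes 30 rose (17.6%) and 46 fell (27.1%), while over all 14519 genes tested 27.2% were called higher and 26.4% lower. Their median log2 fold change was −0.099, against −0.037 over all genes. The libraries of both groups did not overlap for 109 of the 170, and for 67.8% of all genes. Relative to library totals alone the median of all genes moved by −0.34, and members then counted 10 higher and 104 lower, so the split of calls rests on the scaling, while the distance between the Zfp median and the median of all genes stayed at −0.06.

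The largest increase was that of Zfp811, a KRAB gene with 14 fingers on chromosome 17. Its control libraries held 0.0906, 0.261 and 0.211 CPM (2, 6 and 5 counts), and its conditioned medium libraries 36.8, 37.9 and 39.0 CPM (587, 623 and 679 counts). In control it was close to 3 counts in a library, the limit that counting sets for a gene at 0, and every conditioned medium library was far above every control library. The ratio of summed counts, scaled for depth, was 201, with a 95% interval of 117 to 378 that covers counting error alone. The fitted log2 fold change was 7.62, and its error is at least that of the counting interval just given. With a mean of 4.33 counts in control, the gene met the limit of 100 only through the groups given conditioned medium, so these values are a description and no test is given for this comparison. Without the 3 libraries of conditioned medium alone its mean was 258 counts. Only 0.66% of its 50-base words occur in transcripts of other genes, and no exon of another gene overlaps it. Of its neighbours, Zfp871 rose by 0.72 (adjusted p = 1.46e-04), Zfp799 at 0.25 and Zfp870 at −0.40 were not called, and Cyp4f15 had 0 counts throughout.

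Zfp800, whose human counterpart represses genes of enteroendocrine cells, lay at 13.6, 15.9 and 14.9 CPM in control and at 46.2, 52.5 and 51.4 CPM in conditioned medium, with no overlap. It rose by 1.78 on the log2 scale (SE 0.11, adjusted p = 1.14e-08). The KRAB genes Zfp948 and Zfp719 rose by 1.4 and 1.28. Zfp131, a BTB zinc finger protein, was at 24.5, 24.8 and 25.2 CPM in control and at 54.0, 54.6 and 54.6 CPM in conditioned medium. Its libraries were almost equal within each group, and it rose by 1.16 (SE 0.08). Zfp263, among the most abundant of these genes, rose by 0.81 (adjusted p = 1.10e-06), from 86.9, 93.4 and 89.7 CPM to 148, 153 and 164 CPM.

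The largest decrease was that of Zfp395, whose human counterpart is induced by hypoxia. It was at 23.3, 23.6 and 22.8 CPM in control and at 3.2, 4.02 and 3.05 CPM in conditioned medium, far apart. It fell by 2.74 on the log2 scale (SE 0.18, adjusted p = 2.13e-08). Zfp608, a large protein with 1 finger known in mouse thymocytes as a repressor of the Rag genes, was at 11.5, 13.8 and 17.1 CPM and fell to 5.65, 4.81 and 4.6 CPM, a log2 change of −1.46. Next were 3 KRAB genes, Zfp472 at −1.10, Zfp932 at −1.04 and Zfp157 at −1.04, all called. Zfp932 represses endogenous retroviruses in mouse embryonic stem cells, and 45.2% of its 50-base words are shared with other genes, so its reads may be divided among copies.

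Genes with and without the box were also counted apart. Of 73 KRAB genes 10 rose and 28 fell (median −0.21), and of 97 others 20 rose and 18 fell (median −0.01). The difference between both classes was not tested. The KRAB median stayed below that of the others with length offsets (−0.15 against 0.03), with a length slope as a covariate (−0.22 against 0.0046), with total count scaling (−0.54 against −0.35) and with DESeq2 (−0.20 against −0.0048). Level went along with direction: the rank correlation of fold change with mean level was 0.48 over the 170 genes, which share libraries and depth. Of the 32 Zfp genes with a mean of at least 500 counts, 15 rose (46.9%) and 4 fell, and of all 5310 genes at that level 48.3% were higher and 15.3% lower.

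**Figure D4:**
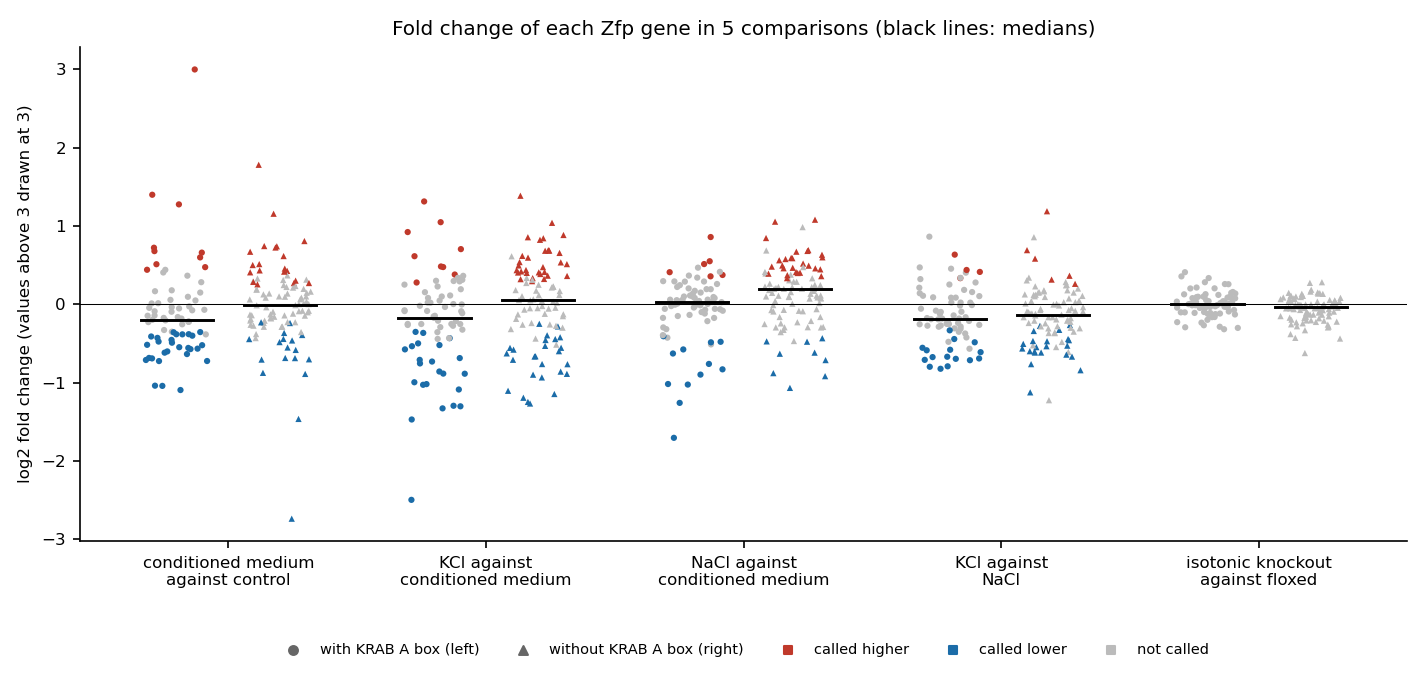
Log2 fold change (y axis) of each of the 170 Zfp genes in the 5 comparisons (x axis), with KRAB genes as circles on the left and the others as triangles on the right, coloured red where called higher, blue where called lower and grey where not called, and black lines at the medians. In conditioned medium against control the KRAB median was −0.21 and that of the others −0.01, and Zfp811, at 7.62, is drawn at 3, the upper edge.

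Among the 21 genes with the ZNF143 motif, 0 rose and 10 fell (median −0.23), and among the 120 promoters without it 26 rose and 27 fell (median −0.08), while 27.2% of all genes were higher and 26.4% lower. Of the same 21 genes, 7 rose and 5 fell with KCl (median 0.08), and 4 rose and 0 fell with NaCl (median 0.17). Over all genes 26.6% were higher and 27.4% lower with KCl, and 13.7% and 14.9% with NaCl. KRAB genes, 15 of the 21, also fell more often than they rose in conditioned medium (28 and 10 of 73). The motif split was looked at after the fold changes were known, and was not tested. Zfp780b was at 9.10, 9.56 and 8.60 CPM in control and at 6.15, 5.78 and 4.31 CPM in conditioned medium, and it fell by 0.72. Zfp874a fell by 0.52 from 13.4, 13.2 and 13.9 CPM to 8.79, 9.07 and 9.88 CPM, and Zfp111 by 0.57. In all 3 the groups did not overlap, and the call of Zfp111 was lost without the first conditioned medium library. Zfp874b, also with the motif, was at 7.06, 10.7 and 8.94 CPM in control and at 8.91, 10.4 and 8.73 CPM in conditioned medium. Its groups overlapped. Zfp143 itself, which activates promoters that hold this motif, was at 11.2, 12.9 and 12.9 CPM in control and at 18, 15.8 and 18 CPM in conditioned medium. It rose by 0.51 (adjusted p = 6.81e-04), a call that was lost with total count scaling.

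The comparison of KCl with conditioned medium asked what KCl adds. It cannot tell potassium from the chloride and the tonicity that come with it. Of the Zfp genes 41 rose and 49 fell, or 24.1% and 28.8%, close to the 26.6% and 27.4% of all genes. The median log2 fold change was −0.053, against −0.012 over all genes, and it became 0.08 with length offsets. The length slopes of the libraries do not overlap between conditioned medium (0.04 to 0.11) and KCl (−0.11 to 0.01), so length and KCl cannot be told apart here without a model. Of the 90 calls 82 were kept with length offsets and 47 with the length slope as a covariate. The groups did not overlap for 98 of 170, against 56.6% of all genes. As in conditioned medium, KRAB genes lay lower: 9 of 73 rose and 23 fell (median −0.17), while 32 of 97 others rose and 26 fell (median 0.05). With length offsets 18 KRAB genes rose and 20 fell (median −0.083), and 41 others rose and 22 fell (median 0.17). With the length slope as a covariate the counts were 3 and 20 for KRAB genes, and 31 and 12 for the others. The difference between the classes was not tested.

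Zfp771 was at 19.5, 18.2 and 18.1 CPM in conditioned medium and at 49.6, 63.2 and 32.1 CPM with KCl, so both groups were apart and the KCl libraries differed among themselves. It rose by 1.39 (adjusted p = 1.25e-04), a call that the length slope as a covariate ended. Zfp874b, a KRAB gene with the ZNF143 motif shown above, rose from 8.91, 10.4 and 8.73 CPM to 23.4, 26.5 and 19.6 CPM, by 1.31 (adjusted p = 1.80e-05), with 31.4% of its words shared with other genes. The KRAB gene Zfp954 rose by 1.05, also lost with the slope covariate. Zfp503 (Nolz1), a regulator of striatal development, was at 9.48, 11.9 and 11.4 CPM and rose to 22.5, 20.2 and 24.4 CPM, by 1.04 (adjusted p = 6.27e-06). Zfp560 rose by 0.92 (adjusted p = 0.0202), but its second KCl library stood far above the others at 10.7 and 7.52 CPM. Without that library the change was 0.44 and without the first conditioned medium library 0.78, neither called.

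Zfp811 fell with KCl to 6.65, 6.93 and 6.47 CPM, below each conditioned medium library and still above each control library. Its log2 change was −2.50 (SE 0.12, adjusted p = 4.13e-09). Zfp90, a KRAB gene, was at 24, 21.9 and 25.2 CPM in control, at 15.1, 13.7 and 13.5 CPM in conditioned medium and at 5.18, 5.07 and 4.91 CPM with KCl. It fell by 1.47 with KCl (adjusted p = 4.83e-07). Of its words 71.1% are shared, and 79.5% of its exon bases lie under a gene on the other strand, Gm26786, which is not analysed here, so without a stated strand its reads are uncertain. The KRAB genes Zfp282, Zfp777 and Zfp984 fell by 1.33, 1.3 and 1.3, the last with 54.6% of its words shared. Zfp395 fell further by 1.25, lost with the slope covariate.

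With NaCl, 33 of 170 Zfp genes rose (19.4%) and 21 fell (12.4%), and of all genes 13.7% were called higher and 14.9% lower. The difference between Zfp genes and all genes was not tested. The median was 0.095, against −0.0085 over all genes. The groups did not overlap for 109 of 170, and for 60.7% of all genes. Of KRAB genes 6 rose and 12 fell (median 0.03), and of the others 27 rose and 9 fell (median 0.20). Only 2 NaCl libraries were measured: without the first, 18 were higher (10.6%) and 13 lower (7.65%), against 8.53% and 8.57% of all genes, and without the second, 16 were higher (9.41%) and 11 lower (6.47%), against 6.72% and 7.89%. This comparison and that of KCl share the conditioned medium libraries.

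Zfp516, which activates brown fat genes in mice, was at 24.7, 20.8 and 25.8 CPM in conditioned medium and at 46.4 and 54.1 CPM with NaCl. It rose by 1.08 with NaCl (adjusted p = 9.67e-05), and by 0.86 with KCl, where it was at 39.9, 36.2 and 52.2 CPM. Zfp503 was at 22.2 and 23.3 CPM with NaCl and rose by 1.06, close to its value with KCl. Zfp874b rose by 0.86 to 18.5 and 15.3 CPM. Zfp422 rose by 0.69, with 20.4% of its words shared, and Zfp628 by 0.85. The Zfp628 call was lost without the first NaCl library (0.87) or the second (0.83), and without the first (0.77) or second (0.81) conditioned medium library. Zfp811 fell by 1.71 (adjusted p = 8.35e-07), to 11.4 and 11.8 CPM, and Zfp90 by 1.26, to 5.50 and 6.27 CPM. Zfp821, without a KRAB box, was at 21.8, 19.8 and 21.7 CPM and fell by 1.07, to 9.97 and 10.2 CPM. The KRAB genes Zfp984 and Zfp991 fell by 1.03 and 1.02, but 86.7% of the words of Zfp991 are shared.

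Set directly against NaCl, KCl had 10 Zfp genes called higher (5.88%) and 38 called lower (22.4%), against 15.4% and 16.2% of all genes. The median was −0.16, against −0.037 over all genes. The groups did not overlap for 96 of 170, and for 51.2% of all genes. Of the 48 calls 0 were kept under the length slope covariate and 6 under every omission of 1 library, and a fit of these 5 libraries alone called 0 members. Higher and lower calls numbered 4 and 23 without the first KCl library, 4 and 35 without the second, and 22 and 56 without the third. Over all genes the shares were then 10.7% and 10.2%, 13.5% and 13.6%, and 23.1% and 25.3%. Omission of either NaCl library leaves 1 in that group. The Zfp median was −0.18 without the first and −0.14 without the second, against −0.045 and −0.013 over all genes. The length slopes of the libraries do not overlap between KCl (−0.11 to 0.01) and NaCl (0.08 to 0.14), so length and salt cannot be told apart here without a model.

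Fold changes between the salts were lower for longer transcripts. From the shortest to the longest of 4 length ranges of equal size, the median log2 fold change of KCl against NaCl was −0.06, −0.13, −0.17 and −0.30. Over all genes, cut at the same lengths but with no lower or upper limit at the ends, it was 0.15, −0.14, −0.20 and −0.22. In the longest range, above 5516 bases, 16 of 43 Zfp genes (37.2%) were lower with KCl, against 26% of all genes of that length. With NaCl against conditioned medium the medians were −0.12, 0.13, 0.07 and 0.26 for Zfp genes, and −0.06, −0.01, 0.05 and 0.14 for all. Among transcripts shorter than 2873 bases, the median between the salts was thus negative for Zfp genes and positive for all genes. These sets were not matched for length: the Zfp transcripts there began at 1015 bases, while all genes, 7237 of 14519 in this range, had no lower limit.

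**Figure D5:**
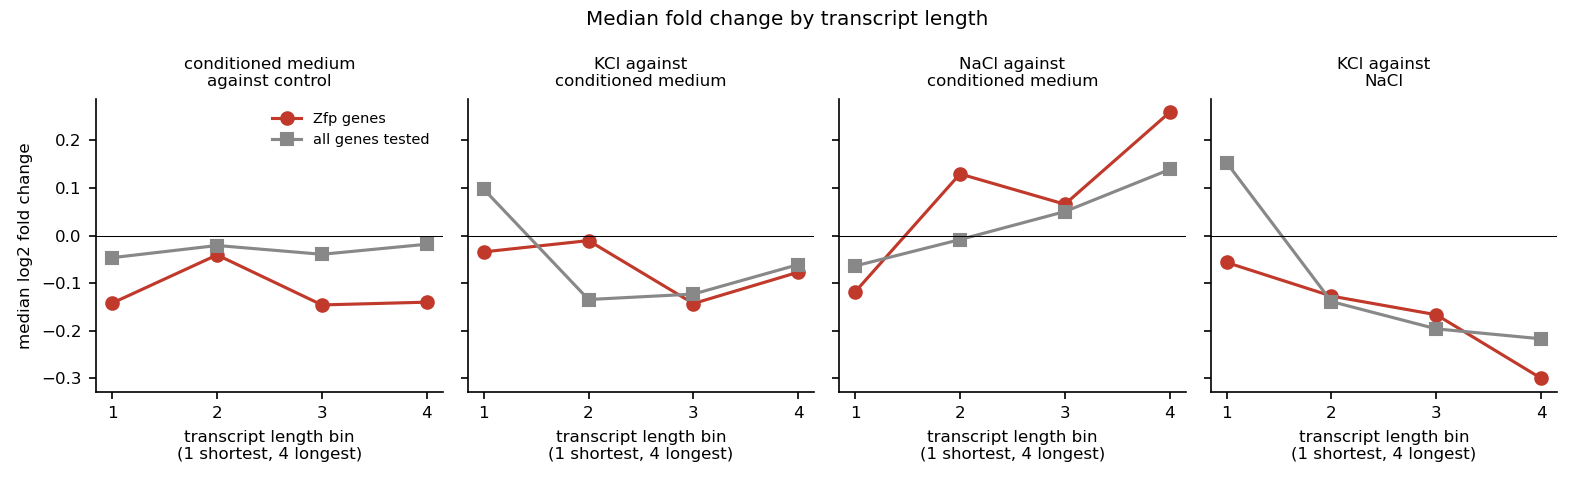
Median log2 fold change (y axis) in 4 ranges of transcript length (x axis, from 1, the shortest, to 4, the longest, each with 42 or 43 Zfp genes), for the 170 Zfp genes (circles) and for all genes tested (squares), in the 4 comparisons of C57BL/6J groups. In KCl against NaCl the Zfp medians go from −0.06 in the shortest to −0.30 in the longest range. For all genes the shortest range has no lower limit and the longest no upper limit.

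Zfp609, which acts with Nipbl and Integrator in mouse neural progenitors, had the lowest called value in KCl against NaCl, −1.13 (adjusted p = 0.0182). Its KCl libraries were at 6.51, 5.07 and 13.4 CPM and its NaCl libraries at 16.2 and 20.9 CPM, and the call was lost without the first KCl library (−0.96) or the second NaCl library (−0.93). Zfp512b was tighter, at 6.05, 5.49 and 6.28 CPM with KCl and 10.7 and 10.7 CPM with NaCl. Its log2 fold change was −0.84 (adjusted p = 9.63e-04). Zfp111, Zfp251 and Zfp811 had −0.82, −0.80 and −0.79. Called higher with KCl were Zfp771 at 1.19, Zfp281 at 0.69, Zfp954 at 0.63, Zfp444 at 0.58 and Zfp87 at 0.44. Zfp281 was at 53.5, 73.4 and 34.6 CPM with KCl and at 33 and 34 CPM with NaCl, and its call was lost without the first (0.70) or second (0.39) KCl library or either NaCl library (0.66 and 0.71). Those of Zfp444, Zfp87 and Zfp954 were lost without the first NaCl library (0.72, 0.54 and 0.66) or the second (0.45, 0.33 and 0.60), those of Zfp444 and Zfp87 also without the second KCl library (0.39 and 0.39), and those of Zfp87 and Zfp954 without the first (0.44 and 0.59). The call of Zfp771 was lost without the second NaCl library (1.08), and that of Zfp111 without either (−0.83 and −0.83).

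Between knockout and floxed cells 0 of 170 Zfp genes were called, and 2 of all 12782 genes (0.0156%), 1 higher and 1 lower (0.00782% each). At an unadjusted p under 0.05 there were 2 Zfp genes (1.18%), against 5.60% of all genes, and DESeq2 called 0 Zfp genes and 177 of all. The targeted gene Kcnj2 had a mean of 24.9 CPM in knockout and 154 CPM in floxed cells, with no overlap, and a log2 change of −2.64 (adjusted p = 0.0150). The lowest adjusted p of a Zfp gene was 0.777, of Zfp874a at 0.34 in edgeR's test. The median log2 fold change was −0.023, against −0.0027 over all genes, and the groups did not overlap for 14 of 170, against 11.2% of all genes. Omission of any 1 of the 6 libraries, the first floxed library among them, also left 0 Zfp genes called. Zfp811 was at 32.2, 41.8 and 33.3 CPM in floxed and at 29.1, 29.8 and 27.7 CPM in knockout cells, a difference of −0.32 (SE 0.14, adjusted p = 0.936). The floxed libraries were all above the knockout ones, but the test did not call the gene. These levels were closer to those in conditioned medium alone than to those with hypertonic KCl, but strain, tonicity and experiment cannot be told apart between these groups. Macrophage markers summed to 12567 to 13807 CPM in knockout and 26733 to 29074 CPM in floxed cells, led by Lyz2, whose locus carries the Cre.

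Of the silencers of retroelements and imprints looked at, Zfp57, Zfp809, Zfp708, Zfp961 and Zfp819 did not meet the count limit. Zfp445, which protects imprints, was at 55.4, 54.4 and 60.3 CPM in conditioned medium, at 37.2, 41.8 and 53.3 CPM with KCl and at 70.4 and 74.7 CPM with NaCl. It fell by 0.35 with KCl (adjusted p = 0.0194), rose by 0.36 with NaCl (adjusted p = 0.0479) and differed by −0.71 between the salts (adjusted p = 0.00237), and the call with KCl was lost with length offsets. It was also lost without the first KCl library (−0.24) or the third conditioned medium library (−0.31), and the call with NaCl under omission of any 1 of these libraries (0.31 to 0.41). Zfp568, which silences a placental Igf2 promoter in mice, had 0.44 in conditioned medium, −0.43 with KCl and 0.26 with NaCl, none called, and −0.69 between the salts, called but not without the first KCl (−0.54) or second NaCl (−0.42) library. Zfp281, a regulator of pluripotency, rose by 0.74 in conditioned medium.

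Among genes with roles outside classic finger arrays, Zfp207 was at 122, 121 and 126 CPM in control, at 142, 145 and 150 CPM in conditioned medium, at 279, 279 and 246 CPM with KCl and at 208 and 211 CPM with NaCl. These 4 groups do not overlap, and it rose by 0.27 in conditioned medium, by 0.89 with KCl (adjusted p = 6.93e-07) and by 0.52 with NaCl. With total count scaling its change in conditioned medium was −0.07. Zfp91, linked to ubiquitin transfer to NIK in non-canonical NF-kB signalling, rose by 0.42, 0.82 and 0.56, from 91.1, 93.1 and 92.8 CPM in control to 116, 125 and 123 CPM in conditioned medium and 196, 228 and 215 CPM with KCl. With total count scaling the change of Zfp91 in conditioned medium was 0.08, not called. Zfp106, an RNA-binding protein needed by motor neurons, was not called in conditioned medium (−0.09) and rose by 0.41 with KCl and 0.68 with NaCl. Zfp143 rose by 0.41 with KCl and 0.58 with NaCl.

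Of the genes tied to RNA and ribosomes, Zfp326, a splicing and elongation factor of the DBIRD complex, fell by 0.67 with KCl and 0.47 with NaCl, the last not called without the first NaCl library (−0.42). Zfp622, a factor of large ribosomal subunit maturation, rose by 0.32 with KCl and had 0.02 with NaCl. Zfp598, the ubiquitin ligase of collided ribosomes, rose by 0.41 in conditioned medium and by 0.41 with NaCl. The splicing factor Zfp830 rose by 0.29 and 0.40 in conditioned medium and with KCl, and Zfp638 rose by 0.25 in conditioned medium. Zfp451, a SUMO ligase, rose by 0.30 in conditioned medium and fell by 0.25 with KCl. Zfp318, needed for IgD transcripts in mouse B cells, fell by 0.42 with KCl. Omission of 1 library ended several of these calls. With KCl these were Zfp622 (0.21 without the first KCl library, 0.30 and 0.27 without conditioned medium library 2 and 3), Zfp451 (−0.22 without the first KCl library, −0.24 and −0.24 without conditioned medium library 1 and 3) and Zfp318 (−0.35 without the first KCl library, −0.38 without the third conditioned medium library). In conditioned medium they were Zfp598 (0.39 without the second control library, 0.34 without the third conditioned medium library), Zfp830 (0.24 and 0.24 without the second of either group) and Zfp638 (0.22 and 0.20 without the first and second control library, 0.23 and 0.25 without the first and second conditioned medium library). With NaCl, Zfp598 lost its call without the first or second library of conditioned medium (0.37 and 0.40) or of NaCl (0.45 and 0.37).

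Of the remaining transcription factors, Zfp217 fell by 0.63 with KCl and had −0.01 with NaCl, with −0.62 between the salts (adjusted p = 0.00419; −0.57 and not called without the second NaCl library). Zfp148 rose by 0.33 with KCl, Zfp292 by 0.46 in conditioned medium, and Zfp703, the relative of Zfp503, by 0.37 with NaCl. Zfp608 rose by 0.44 with KCl and 0.60 with NaCl after its decrease in conditioned medium. The calls of Zfp148 (0.24 without the second KCl library, 0.30 and 0.31 without conditioned medium library 1 and 3), of Zfp703 (0.34 to 0.40 without any 1 of its 5 libraries) and of Zfp608 were lost. For Zfp608 this held without any KCl library (0.42 to 0.46), either NaCl library (0.51 and 0.68), and conditioned medium library 2 or 3 (0.40 and 0.37 with KCl, 0.57 and 0.54 with NaCl). Zfp384 was not called in any comparison, with values between −0.13 and 0.17. Zfp335 was not called either, and its values ran from −1.23 between the salts to 0.99 with NaCl.

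Of 30 symbols listed as corepressor partners of the KRAB box, 29 were tested. In conditioned medium 10 rose and 6 fell (median 0.11), with KCl 11 rose and 7 fell (median 0.20), with NaCl 10 rose and 1 fell (median 0.25), between the salts 3 were higher and 8 lower with KCl, and in the knockout 0 were called. Called in either direction were 55.2% of them in conditioned medium (53.5% of all genes), 62.1% with KCl (53.9%), 37.9% with NaCl (28.7%) and 37.9% between the salts (31.6%), and these differences were not tested. Trim28, which the KRAB box binds, had −0.14 in conditioned medium, not called, and rose by 0.37 with KCl and 0.32 with NaCl. Setdb1 fell by 0.37 in conditioned medium. The DNA methylation genes Uhrf1 and Dnmt1 fell there by 1.41 and 0.99, and Cbx5 and Cbx3, which encode heterochromatin proteins, by 0.72 and 0.73. Atf7ip, which stabilises SETDB1, fell by 0.73 in conditioned medium and rose by 1.10 with KCl and 0.96 with NaCl. Resf1, a partner of SETDB1 in retroelement silencing, rose by 0.72 in conditioned medium and by 0.71 with KCl. Others that rose in conditioned medium were Pphln1 (0.57) and Fam208a (0.51), of the HUSH silencing complex, Gatad2a (0.47), Hdac2 (0.43), Hdac1 (0.37) and Mta2 (0.23), of the NuRD deacetylase complex, and the MORC ATPase genes Morc2a (0.32) and Morc3 (0.29). Cbx1, the other heterochromatin protein gene, had 0.11 and was not called (adjusted p = 0.342, edgeR). Of the HUSH and NuRD genes tested, Mphosph8 (0.20), Chd4 (0.29), Mta1 (0.26), Rbbp4 (0.06), Rbbp7 (−0.06), Gatad2b (−0.09), Chd3 (−0.11) and Mbd3 (−0.12) were not called in conditioned medium. The 7 that fell with KCl, where 11 rose, were Hdac1 (−0.72), Mta1 (−0.68), Cbx3 (−0.66), Pphln1 (−0.63), Smarcad1 (−0.49), Morc2a (−0.35) and Cbx5 (−0.35). The 1 that fell with NaCl was Hdac1 (−0.68).

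Sequence shared among family members limits the counts of some genes. The median share of a gene's 50-base words found in transcripts of other genes was 0.958%, 54 genes had none, and 22 had at least 20%. Without these 22 the counts of the other 148 were 27 higher and 41 lower in conditioned medium, 35 and 42 with KCl, 29 and 16 with NaCl, and 10 and 37 between the salts. Exons of another gene overlapped those of 58 genes, 47 of them on the other strand.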

How the data were processed

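RNA-seq counts of 17 libraries were used as the authors deposited them, as raw counts per Ensembl gene in 1 table whose columns all matched a sample title. The submitters' processing notes name DESeq2 1.30.1. For the aligner, genome build and strand setting, nothing was given in the sources used here.

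Tests were made with edgeR 4.0.16 (R 4.3.3; quasi-likelihood, robust, TMM, default low-count filter), with the 11 C57BL/6J libraries in 1 fit and the 6 isotonic libraries in another. Benjamini-Hochberg adjusted p-values run over all genes tested, with a threshold of 0.05. Scripts were tested on simulated data. Alternatives included DESeq2 1.42.0, other scalings, length offsets and the length slope as a covariate. The labels do not say that replicates were separate cultures or animals: p-values reflect the spread of these samples alone, perhaps technical. A gene at 0 in a library is below 3 counts there, by counting error alone.

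Lengths and annotation came from GENCODE M21 (GRCm38). No protein table was used: a KRAB box was called where at least 10 of 14 conserved positions matched in a translated coding sequence. Genes named per comparison are the 5 highest and 5 lowest called, without overlap and with at least 5 CPM in 1 group, the extremes of level and length, and listed genes of known role. Zfp143, Zfp780b, Zfp874a, the partners named and the neighbours of Zfp811 were added after values were seen. Members, lists and motifs were chosen with earlier results of these data known.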

Additional observations from a re-analysis of the deposited data

How the results depend on the processing

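With total count scaling, members in conditioned medium were 10 higher and 104 lower (median −0.44), with KCl 21 higher and 79 lower (median −0.26), and between the salts 3 higher and 60 lower (median −0.31), while the NaCl median was 0.026. The median of all genes shifted by −0.34, −0.21, −0.14 and −0.07, in the order conditioned medium, KCl, KCl against NaCl and NaCl. Of all calls 24.9% were then higher, against 50.8%, in conditioned medium, 32.6% against 49.3% with KCl, 37% against 48% with NaCl and 30.1% against 48.6% between the salts. Zfp207 (−0.066), Zfp638 (−0.083), Zfp830 (−0.051) and Zfp451 (−0.035) then changed sign in conditioned medium. The calls there of Zfp281 (0.40), Zfp143 (0.18), Zfp292 (0.12), Zfp91 (0.080) and Zfp598 (0.072) were lost. With KCl those of Zfp608 (0.23), Zfp143 (0.20), Zfp106 (0.20), Zfp830 (0.19), Zfp148 (0.12) and Zfp622 (0.11) were lost.

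With length offsets the median was −0.053 in conditioned medium and 0.078 with KCl (0.043 from exon unions), and between the salts 23 were higher and 22 lower with a median of −0.055 (20, 24 and −0.054 from exon unions). With the length slope as covariate, 32 were lower with KCl (median −0.010), 1 was higher and 0 lower between the salts (median −0.066), and 1 was higher and 3 lower in the knockout. With this covariate signs reversed with KCl for Zfp560 (−0.019), Zfp445 (0.035), Zfp335 (1.24), Zfp318 (0.041) and Zfp609 (0.73). Between the salts they reversed for Zfp771 (−0.0058), Zfp281 (−0.28), Zfp954 (−0.16), Zfp609 (0.39), Zfp568 (0.12), Zfp106 (0.064) and Setdb1 (0.089). The cause of these changes was not tested.

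Of the 32 members with a mean of at least 500, 15 rose and 4 fell in conditioned medium (median 0.19), 12 and 9 with KCl (median 0.11), 14 and 2 with NaCl (median 0.19), and 3 were higher and 9 lower between the salts. Of all 5310 genes at that level, 48.3% were higher and 15.3% lower in conditioned medium (median 0.24). With KCl these shares were 40.0% and 27.1% (median 0.096), with NaCl 21.9% and 15.8% (median 0.037), and between the salts 26.1% and 20.2%. The differences between members and all genes at that level were not tested. Also between the salts, the median of all members was −0.18 without the low-count filter and −0.14 with RLE factors or DESeq2. DESeq2 called 16 higher, and the fit of only these groups called 0 in either direction.

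Replicate numbers were not taken to pair the samples, since not every pair correlated above 0.1: 4 of 15 same-number pairs of C57BL/6J libraries did, against 0 of 30 pairs of different numbers. Libraries numbered 3 did so for control with conditioned medium (0.13) and KCl (0.20), and for conditioned medium with KCl (0.10). Among isotonic libraries, 1 of 3 same-number pairs was above 0.1, with correlations from −0.59 to 0.21. Of 6 isotonic pairs of different numbers 3 were above 0.1, with correlations from −0.66 to 0.70. The part of this structure in the knockout comparison was not tested. With a replicate block, 32 rose and 48 fell in conditioned medium, 43 and 55 with KCl, 41 and 20 with NaCl, 15 and 52 between the salts (median −0.18), and 0 in the knockout. With block and length offsets, the KCl median was 0.078 and 29 were higher between the salts (median −0.049).

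Leaving out 1 library at a time gave 26 to 31 higher and 34 to 40 lower in conditioned medium (median −0.11 to −0.09), 30 to 45 and 42 to 57 with KCl, 16 to 29 and 11 to 20 with NaCl, and 0 to 22 and 8 to 56 between the salts (median −0.18 to −0.14). Kept under every alternative were 40 of 76 calls in conditioned medium, 35 of 90 with KCl, 20 of 54 with NaCl and 0 of 48 between the salts. Depth limits most the genes near 100 counts.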

Other observations

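Other zinc finger families of these libraries were counted for comparison, with names taken from symbols. Of 18 Zkscan and Zscan genes, which pair fingers with a SCAN domain, 0 rose and 8 fell in conditioned medium (median −0.24), 3 rose and 7 fell with KCl (median −0.24), and 1 rose and 1 fell with NaCl. Of 38 Zbtb genes, which pair fingers with a BTB domain, 9 rose and 12 fell in conditioned medium (median −0.22), 16 rose and 7 fell with KCl (median 0.084), and 9 rose and 1 fell with NaCl (median 0.17). Of all genes tested, 27.2% were higher and 26.4% lower in conditioned medium, 26.6% and 27.4% with KCl, and 13.7% and 14.9% with NaCl. Also counted were 19 Zc3h, 20 Zdhhc and 13 Klf genes. In that order, 8, 7 and 4 rose in conditioned medium and 2, 4 and 4 fell (medians 0.14, 0.057 and −0.019). With KCl 3, 3 and 4 rose and 6, 12 and 4 fell (medians −0.073, −0.52 and 0.019). With NaCl 6, 1 and 1 rose and 2, 6 and 4 fell (medians 0.14, −0.31 and −0.24). Differences between the families, or from all genes, were not tested. In the knockout 0 genes of any of these families were called.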
